A study of Mus musculus with 6 samples.

Results

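The genes described here are the xenobiotic receptors CAR (Nr1i3) and PXR (Nr1i2), the Cyp2b and Cyp3a monooxygenases they are known to control, and Por, the reductase that drives those enzymes. They are 10 genes, chosen by name from the 55487 gene rows of each table: Nr1i3, Nr1i2, Por, Cyp2b9, Cyp2b10, Cyp2b13, Cyp3a11, Cyp3a13, Cyp3a16 and Cyp3a25. All 10 matched a single gene identifier and all 10 were among the 13498 genes with enough reads to test.

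CAR and PXR are nuclear receptors that are abundant in hepatocytes. Drugs, pollutants, bile acids and steroids activate them, directly or through signalling, and each then pairs with the retinoid X receptor and binds DNA at repeats of a short hexamer. In mouse liver Cyp2b10 is the usual readout of active CAR and Cyp3a11 that of active PXR, and each receptor can act on both. Every microsomal cytochrome P450 takes its electrons from the reductase encoded by Por. Cyp2b9, Cyp2b13 and Cyp3a16 are better known as genes expressed mainly in female adult liver, under the control of growth hormone.

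Gene expression was measured by sequencing of polyadenylated RNA from the livers of male mice aged 8 weeks and fed standard chow. The WT group was 3 mice of the inbred substrain BALB_cJ, and the SCADD group was 3 mice of the related substrain BALB_cByJ, which lacks working short-chain acyl-CoA dehydrogenase, a mitochondrial enzyme of fatty acid oxidation. Genotype and substrain cannot be told apart in this design, because each group is 1 substrain, and neither group was described as having received a drug or other activator of the receptors. Each library came from 20 mg of frozen tissue of 1 biological replicate.

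Library depth differed between the groups, at 23991104 to 27148756 reads in genes in WT and 16948986 to 23912744 in SCADD. Unmapped reads were 13.6% to 16.4% of reads in WT and 25.1% to 36.6% in SCADD, and the part of this in any result was not tested. Levels are given as CPM, read counts divided by the effective size of each library, and 3 counts corresponded to 0.111 to 0.177 CPM. Acads, the gene of the deficient enzyme, was at 185, 166 and 196 CPM in WT and 99.3, 104 and 97.0 CPM in SCADD (0.550-fold, edgeR adjusted p = 0.00407). The labels name a deficiency of the enzyme and give no direction for its mRNA. Hepatocyte mRNAs dominated every library, with Alb at 79586 to 135287 CPM, and 0 of 5 tested hepatocyte markers were called by edgeR or limma-voom (1 as lower by DESeq2, 2 at an unadjusted edgeR p under 0.05). Summed endothelial markers were at 213 to 248 CPM in WT and 131 to 212 in SCADD, cholangiocyte markers at 44.7 to 52.1 and 28.9 to 41.1, and Kupffer cell markers at 183 to 254 and 142 to 258. Summed erythroid markers were at 502 to 652 CPM in WT and 396 to 1308 in SCADD, and enterocyte and pancreas markers at 268 to 340 and 328 to 824. The last 2 sums were highest in SCADD replicate 3. Nearly all of the enterocyte sum was Fabp2, at 242 to 306 CPM in WT and 311 to 801 in SCADD, with the enterocyte marker Vil1 at or below 0.217 CPM in every library. The only called gene of that list, Cela1, was lower in SCADD, at 15.5 to 22.9 CPM against 26.2 to 34.9 in WT. The part of these markers in the results was not tested. The pancreatic markers Prss1 and Cpa1 were at 0 in all 6 libraries.

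Of the 10 genes, 2 were higher in SCADD livers (Nr1i3 and Por), 1 was lower (Cyp3a13) and 7 did not pass the test. The test was edgeR's quasi-likelihood test, which gives the log2 fold change of SCADD over WT (log2FC) and its standard error (SE), with p-values adjusted over all 13498 genes and 0.05 as the threshold. By the same test 7.02% of all genes were called, 4.22% as higher and 2.80% as lower in SCADD. For 3 of the 10 genes the CPM values of the groups did not overlap, against 28.0% of all tested genes. The median log2 fold change of the 10 genes was 0.38, beside -0.00078 for all tested genes. The receptor CAR and the shared reductase were therefore called as higher, while the usual target of CAR, Cyp2b10, and that of PXR, Cyp3a11, were not called in either direction.

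**Figure D1:**
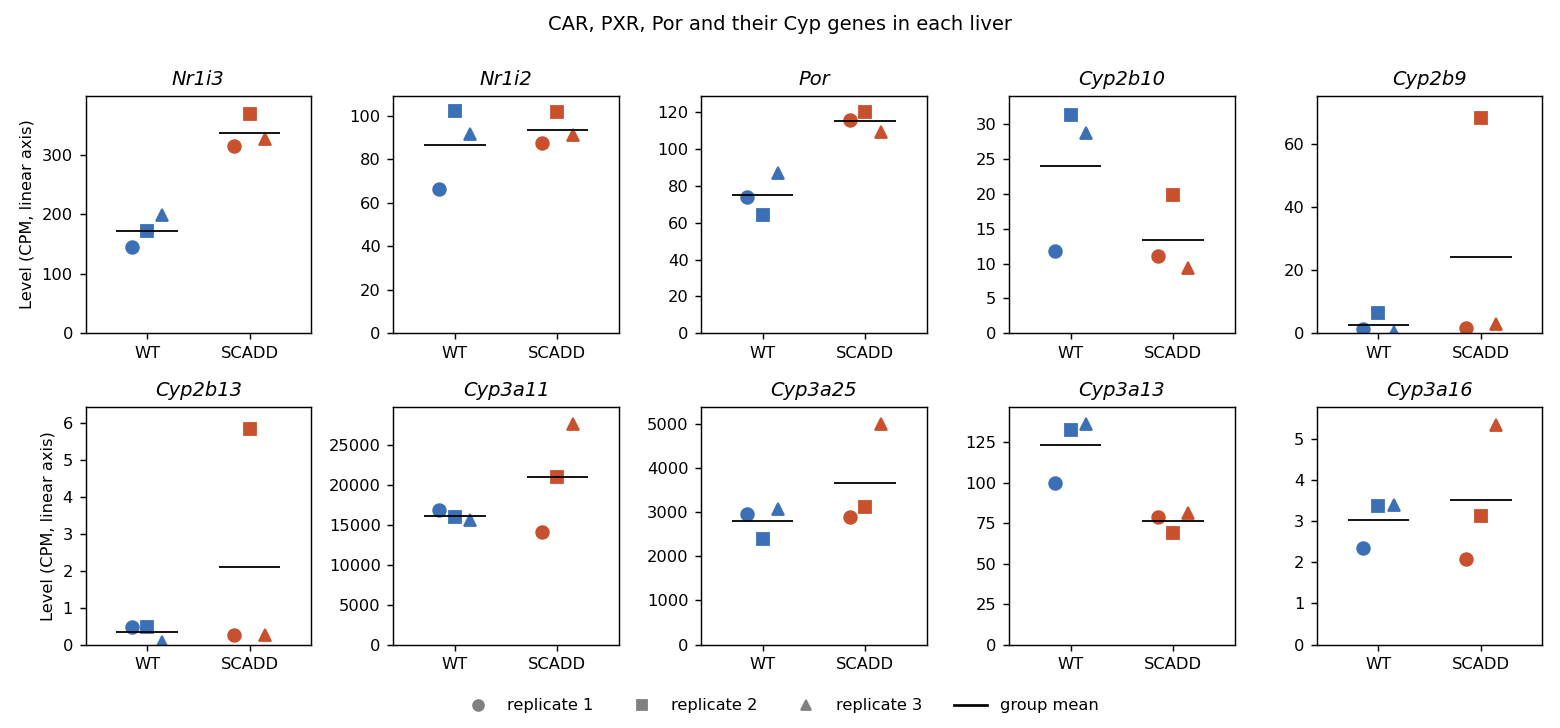
Level of each of the 10 genes in every liver, in TMM-scaled CPM on a linear axis that starts at 0, with 1 symbol per replicate and a bar at the group mean. The groups separate for Nr1i3, Por and Cyp3a13 only, and the Cyp2b9 and Cyp2b13 means of SCADD rest on replicate 2.

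Nr1i3 (ENSMUSG00000005677, chr1:171213970-171220701, plus strand, GRCm38) encodes CAR, which stays in the cytoplasm of resting hepatocytes until it is activated. It was at 145, 171 and 199 CPM in the WT livers and at 315, 369 and 326 CPM in the SCADD livers. On this scale every SCADD liver was above every WT liver, by a margin larger than the spread within either group. In TPM, a unit that also divides by transcript length, the groups did not overlap either. There they were at 66.38 to 71.95 in WT and 95.77 to 149.28 in SCADD, a margin smaller than the SCADD spread. Group means of 172 ± 26.8 and 337 ± 28.6 CPM (± SD, n = 3 livers per group) differed 1.96-fold (log2FC 0.97, SE 0.16, edgeR adjusted p = 0.00617). The call was kept under all 16 alternative analyses, with log2 fold changes of 0.79 to 1.09 and an edgeR adjusted p of at most 0.0438 among them. In tissue RNA, more cells that express a gene and more of its RNA per cell cannot be told apart.

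The Nr1i3 locus overlaps Tomm40l (chr1:171216011-171222514, minus strand), which encodes an outer mitochondrial membrane import protein. With strand ignored, reads in the shared stretch were given to neither gene, and the Nr1i3 counts fell from 4020, 3920 and 5303 to 713, 657 and 775 in WT, and from 7726, 7821 and 5247 to 1169, 1097 and 737 in SCADD. The remaining reads still gave a log2 fold change of 0.79 (edgeR adjusted p = 0.0039). Tomm40l itself was at 12.6 ± 0.972 CPM in WT and 8.83 ± 1.81 CPM in SCADD (log2FC -0.52, SE 0.17, edgeR adjusted p = 0.0952), which did not pass. It passed without SCADD replicate 3 (edgeR adjusted p = 0.0138), and its log2FC was 0.11 from RSEM expected counts. It was named for its position and not for its values.

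Nr1i2 (ENSMUSG00000022809, chr16:38248323-38294824, minus strand) encodes PXR, which senses a broad range of drugs and bile acids. It was at 66.3, 102 and 91.5 CPM in WT and at 87.6, 102 and 91.3 CPM in SCADD. On this scale the SCADD values all lay inside the WT range. In TPM the groups overlapped as well, at 27.68 to 39.05 in WT and 27.22 to 42.27 in SCADD. The means of 86.7 ± 18.5 and 93.5 ± 7.35 CPM gave a log2FC of 0.11 (SE 0.17, edgeR adjusted p = 0.756), and of -0.064 without WT replicate 1, the lowest library.

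The balance between the receptors was also compared within each library. The ratio of Nr1i3 to Nr1i2 in TPM, a unit that also divides by transcript length, was 2.41, 1.70 and 2.10 in WT and 3.75, 3.53 and 3.52 in SCADD. The ratios did not overlap and varied less within SCADD than within WT (two-sided exact permutation p = 0.1, the smallest that 3 against 3 allows). Being a ratio within a library, it does not depend on how libraries were scaled.

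Por (ENSMUSG00000005514, chr5:135670033-135735326, plus strand) encodes NADPH-cytochrome P450 oxidoreductase. It was at 73.8, 64.2 and 87.2 CPM in WT and at 116, 120.1 and 109 CPM in SCADD. On this scale all SCADD livers exceeded all WT livers. In TPM the groups overlapped, at 30.9, 23.9 and 32.3 in WT and 45.2, 54.8 and 32.1 in SCADD, whereas for Nr1i3 and Cyp3a13 they did not. The 1.53-fold difference (75.1 ± 11.5 against 115 ± 5.41 CPM, log2FC 0.61, SE 0.14) passed with an edgeR adjusted p of 0.0302. That call depended on single libraries: the edgeR adjusted p was 0.0935 without WT replicate 1, 0.149 without WT replicate 2 and 0.112 without SCADD replicate 1, with log2 fold changes of 0.51 to 0.74 over the 6 fits that each left out a library.

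The Cyp2b genes lie close together on chromosome 7, and Cyp2b9 and Cyp2b13 are near copies. Their upstream sequences are shown because both genes were far higher in 1 library than in the others and because Cyp2b10, the usual CAR target, has a different upstream sequence. Each line starts 250 bases before the RefSeq start of the gene (GRCm38.p6, plus strand) and runs toward it for 200 bases. The windows are chr7:26173159-26173358 for Cyp2b9, chr7:26061245-26061444 for Cyp2b13 and chr7:25897408-25897607 for Cyp2b10. Capitals mark AGGTCA, the hexamer that many nuclear receptors bind.
Cyp2b9: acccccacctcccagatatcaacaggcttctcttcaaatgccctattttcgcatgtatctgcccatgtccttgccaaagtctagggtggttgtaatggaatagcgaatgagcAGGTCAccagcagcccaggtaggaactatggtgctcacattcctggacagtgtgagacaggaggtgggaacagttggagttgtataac
Cyp2b13: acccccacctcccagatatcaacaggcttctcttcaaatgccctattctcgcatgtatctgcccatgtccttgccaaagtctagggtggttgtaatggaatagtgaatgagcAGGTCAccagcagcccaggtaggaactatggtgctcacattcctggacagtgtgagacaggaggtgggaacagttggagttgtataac
Cyp2b10: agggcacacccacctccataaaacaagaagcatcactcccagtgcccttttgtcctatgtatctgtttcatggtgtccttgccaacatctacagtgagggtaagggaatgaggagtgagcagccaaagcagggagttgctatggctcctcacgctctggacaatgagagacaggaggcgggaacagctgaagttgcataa

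Over the whole 250 bases before the start, Cyp2b9 and Cyp2b13 differed at 2 positions, an identity of 99.2%. Cyp2b10 was 70.5% identical to each of them. The hexamer stands 138 bases before the start of both Cyp2b9 and Cyp2b13, and these letters are not in the Cyp2b10 window. Searched on both strands as AGGTCA or TGACCT, it occurred in the 250 bases upstream of 4 of the 10 genes and of 13.8% of 27026 RefSeq promoters. Sites farther upstream, or with other letters, were not searched for in any gene. The part of the hexamer in any level was not tested. The mature transcripts of Cyp2b9 and Cyp2b13 were 89.1% identical, and those of Cyp2b10 were 84.7% and 84.5% identical to them. Of all 50-base windows of the transcripts, 10.8% in Cyp2b9, 20.0% in Cyp2b13 and 7.70% in Cyp2b10 also occurred in another Cyp2b or Cyp3a gene, so reads from those windows cannot be assigned to 1 gene.

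Cyp2b10 (ENSMUSG00000030483, chr7:25897620-25926624, plus strand) encodes a drug-oxidising P450 that phenobarbital induces strongly through CAR. It was at 11.9, 31.3 and 28.7 CPM in WT and at 11.0, 19.9 and 9.31 CPM in SCADD. WT replicate 1 lay among the SCADD values, and the other WT livers lay above all of them. The means were 24.0 ± 10.6 and 13.4 ± 5.67 CPM (log2FC -0.83, SE 0.44, edgeR adjusted p = 0.326). Without WT replicate 1 the gene passed as lower in SCADD (log2 fold change -1.17, edgeR adjusted p = 0.0458). Under the other 15 alternatives it did not pass, with log2 fold changes between -1.24 and -0.59.

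Set against the receptor, Cyp2b10 was low in SCADD. The ratio of Cyp2b10 to Nr1i3 in TPM was 0.103, 0.269 and 0.212 in WT and 0.0549, 0.0807 and 0.0427 in SCADD, so every SCADD liver was below every WT liver (two-sided exact permutation p = 0.1, the smallest possible). The difference in this ratio contains the higher Nr1i3 level described above.

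Cyp2b9 (ENSMUSG00000040660, chr7:26173411-26210661, plus strand), a steroid-oxidising P450 of female liver, was detected in every library but was high in 1. It had 39, 146 and 12 counts in WT and 38, 1448 and 47 counts in SCADD, or 1.41, 6.38 and 0.450 CPM and 1.55, 68.3 and 2.92 CPM. SCADD replicate 2 was far above the 5 other livers, which overlapped. The log2FC of 3.18 (SE 1.89, edgeR adjusted p = 0.414) did not pass, and without SCADD replicate 2 it was -0.32 (edgeR adjusted p = 0.937).

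Cyp2b13 (ENSMUSG00000040583, chr7:26061497-26096197, plus strand) was also highest in SCADD replicate 2, at a lower level. It had 13, 11 and 2 counts in WT and 6, 124 and 4 counts in SCADD, so that SCADD replicate 2 again stood apart. Outside that library the counts were too low to show a difference of moderate size. The log2FC was 2.64 (SE 1.44, edgeR adjusted p = 0.354), and without SCADD replicate 2 it was -0.46 (edgeR adjusted p = 0.796). In SCADD replicate 2 Cyp2b9 had 11.7 counts for each Cyp2b13 count, inside the range of 3.00 to 13.3 in WT.

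Because the 3 Cyp2b genes share sequence, their TPM values were also summed. The sum was 8.03, 21.4 and 15.5 TPM in WT and 8.23, 55.3 and 5.34 TPM in SCADD. The highest value and the lowest were both SCADD livers, and the sums overlapped (SCADD over WT 1.53, two-sided exact permutation p = 0.9). The ratio was 0.453 without SCADD replicate 2. The make-up of the sum differed as well: Cyp2b9 was at 3.27 times the TPM of Cyp2b10 in that liver, and at 0.0151 to 0.276 times in the 5 others.

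**Figure D2:**
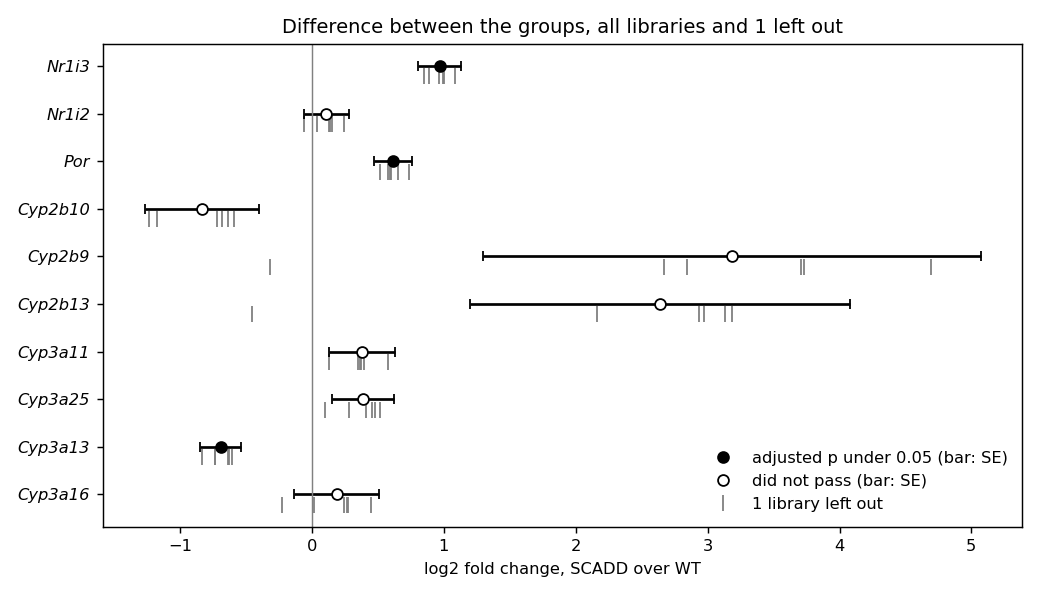
Log2 fold change of SCADD over WT for each of the 10 genes, with the standard error as a bar and a tick for each of the 6 fits that left out 1 library. Filled points passed the threshold, and the ticks of Cyp2b9 and Cyp2b13 on the negative side are the fits without SCADD replicate 2.

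The Cyp3a genes described here lie on chromosome 5, Cyp3a13 apart from the others. The upstream sequences of Cyp3a11 and Cyp3a25, the most abundant of the 10 genes, are shown for comparison with the Cyp2b windows. They begin 250 bases before the RefSeq start and are written along the minus strand of GRCm38.p6, with capitals as above or for the reverse complement TGACCT. The Cyp3a11 window of 140 bases is chr5:145879965-145880104, and the Cyp3a25 window is chr5:146009619-146009868.
Cyp3a11: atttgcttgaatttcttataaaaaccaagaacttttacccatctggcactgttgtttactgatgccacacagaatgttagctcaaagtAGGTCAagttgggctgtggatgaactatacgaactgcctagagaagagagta
Cyp3a25: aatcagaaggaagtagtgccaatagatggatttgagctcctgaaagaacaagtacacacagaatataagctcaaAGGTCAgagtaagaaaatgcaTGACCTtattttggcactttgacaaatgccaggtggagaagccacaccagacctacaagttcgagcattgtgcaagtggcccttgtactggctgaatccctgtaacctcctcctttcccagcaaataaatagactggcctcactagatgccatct

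The hexamer stands 162 bases before the RefSeq start of Cyp3a11, and 176 and 155 bases before that of Cyp3a25, where the second match is on the opposite strand. The Cyp3a11 interval given below begins upstream of its RefSeq start, right after the printed window, so the hexamer is closer to that beginning. A match of these letters is a description of the sequence and was not measured as a binding site. Cyp3a16, which is 91.3% identical to Cyp3a11 in its transcript, and Cyp3a13, which is 67.7% identical to it, do not have these letters in the 250 bases upstream.

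Cyp3a11 (ENSMUSG00000056035, chr5:145854426-145879964, minus strand) encodes the main drug-oxidising P450 of the mouse Cyp3a group. It was at 16847, 15992 and 15584 CPM in WT and at 14129, 21047 and 27749 CPM in SCADD. The WT livers lay close together, whereas SCADD replicate 1 was below and SCADD replicates 2 and 3 were above all of them. The means were 16141 ± 645 and 20975 ± 6810 CPM (log2FC 0.38, SE 0.25, edgeR adjusted p = 0.419). Across the alternatives the log2 fold change was 0.13 to 0.58, and it fell to the lower of these without SCADD replicate 3.

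Cyp3a25 (ENSMUSG00000029630, chr5:145977194-146009618, minus strand), a related P450 with steroid-oxidising activity, was at 2960.0, 2383 and 3081 CPM in WT and at 2883, 3124 and 5006 CPM in SCADD. SCADD replicate 3 was again the highest, SCADD replicate 2 lay just above the WT range and SCADD replicate 1 inside it. The log2FC of 0.39 (SE 0.24, edgeR adjusted p = 0.376) did not pass and was 0.10 without SCADD replicate 3. Of the 50-base windows in its transcripts 26.8% also occur in another gene of these families, mostly in Cyp3a59.

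Cyp3a13 (ENSMUSG00000029727, chr5:137892932-137921619, minus strand), a member also expressed in the intestine, differed in the opposite direction from the receptor CAR. It was at 100.03, 133 and 137 CPM in WT and at 79.0, 68.7 and 81.4 CPM in SCADD. Every SCADD liver was below every WT liver. The fold was 0.620 (123 ± 20.1 against 76.4 ± 6.75 CPM, log2FC -0.69, SE 0.16, edgeR adjusted p = 0.0246). The edgeR adjusted p was 0.114 without WT replicate 2, 0.108 without WT replicate 3 and 0.0757 without SCADD replicate 1, so 3 of the 6 libraries were each needed for the call. No 50-base window of its transcripts occurred in another Cyp2b or Cyp3a gene.

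Cyp3a16 (ENSMUSG00000038656, chr5:145436309-145469723, minus strand), known from fetal and female liver, had 65, 77 and 90 STAR counts in WT and 51, 66 and 86 in SCADD. The groups overlapped (2.35 to 3.38 CPM against 2.08 to 5.34 CPM, log2FC 0.19, SE 0.32, edgeR adjusted p = 0.787). The value was -0.22 without SCADD replicate 3. The authors' RSEM tables, which share ambiguous reads among genes by a model, gave it only 1, 1 and 2 expected counts in WT and 0, 2 and 3 in SCADD. Its STAR counts were 14.0 to 21.7 per 100000 Cyp3a11 counts in WT and 14.7 to 19.2 in SCADD, so the level of Cyp3a16 is uncertain.

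The summed level of the 9 Cyp3a genes was 9323, 7982 and 7925 TPM in WT and 7734, 11503 and 11147 TPM in SCADD. The sums overlapped (8410 ± 791 against 10128 ± 2081 TPM, SCADD over WT 1.20, two-sided exact permutation p = 0.4). Cyp3a11 made up 80.1% to 84.0% of it in WT and 80.3% to 84.7% in SCADD. The ratio of Cyp3a11 to Cyp3a25 was 4.19 to 5.53 in WT and 4.21 to 5.72 in SCADD. The balance of these main genes thus differed by less than the spread between livers. This does not extend to Cyp3a13, a small part of the sum, which was lower in SCADD. Of the remaining Cyp2b and Cyp3a genes, 4 of 7 were tested and 0 were called by edgeR, DESeq2 or limma-voom, with 0 at an unadjusted edgeR p under 0.05. Cyp3a44 had a log2 fold change of 0.46 (edgeR adjusted p = 0.600) and Cyp3a57 one of 0.43 (edgeR adjusted p = 0.450). Cyp2b19 and Cyp3a41b had 0 uniquely mapped reads in all 6 libraries, which sets no limit on a gene whose reads also map to a near copy.

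On the length-corrected scale the genes covered a wide range of levels. In WT livers Cyp3a11 was the highest at 6900.4 ± 675 TPM, followed by Cyp3a25 at 1444 ± 207 and Nr1i3 at 68.4 ± 3.11. Cyp3a13 (37.9 ± 4.25), Nr1i2 (33.7 ± 5.71) and Por (29.0 ± 4.47) came next and each overlapped its neighbour in the order, and Cyp2b10 was at 13.3 ± 5.73 TPM. Cyp2b9 (1.48 ± 1.63), Cyp2b13 (0.187 ± 0.144) and Cyp3a16 (0.0367 ± 0.0115) were lowest, with ranges that overlapped from each to the next.

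In SCADD livers Cyp3a11 (8371 ± 1895 TPM), Cyp3a25 (1707 ± 232) and Nr1i3 (126 ± 27.3) kept the first places. Por (44.0 ± 11.4 TPM) stood above Nr1i2 (34.9 ± 7.53), with overlapping ranges, and Cyp3a13 (22.7 ± 3.21) was below both. Cyp2b9 (13.8 ± 22.2 TPM) and Cyp2b10 (7.79 ± 4.01) overlapped. TPM is relative to all transcripts of a library, and the major urinary protein genes took 32278 to 41585 TPM in WT and 73684 to 148379 TPM in SCADD.

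The partners of the receptors were examined as a list of 24 genes, all tested. They were retinoid X receptors, coregulators, other liver nuclear factors, and chaperones and signalling proteins that act on CAR. None was called as higher by edgeR, DESeq2 or limma-voom (4 at an unadjusted edgeR p under 0.05), 2 were lower and the median log2 fold change was 0.038. The counts depended on single libraries, with 3 higher and 1 lower without SCADD replicate 3 and 1 higher without WT replicate 2, and 4 were lower with no filter on low counts. Ppargc1a, a coactivator of many nuclear receptors including CAR and PXR, was at 11.4, 24.7 and 15.3 CPM in WT and 4.65, 6.18 and 3.60 CPM in SCADD (log2FC -1.82, SE 0.30, edgeR adjusted p = 0.00744, or 0.0516 without SCADD replicate 3). Egfr, the growth factor receptor whose signalling keeps CAR inactive, was at 221, 163 and 209 CPM in WT and 119.5, 69.6 and 89.8 CPM in SCADD (log2FC -1.09, SE 0.21, edgeR adjusted p = 0.0110). Both genes had groups that did not overlap.

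Among 37 other genes known to respond to CAR or PXR, 33 were tested, 2 were higher, 2 were lower and 29 did not pass. Their median log2 fold change was 0.31. Alas1, the rate-limiting enzyme of heme synthesis, supplies the prosthetic group of every P450 and was at 171, 122 and 114 CPM in WT and 286, 293 and 281 CPM in SCADD (log2FC 1.08, SE 0.17, edgeR adjusted p = 0.00498). Sult5a1, a sulfotransferase, was near the detection floor in WT at 0.253, 0.175 and 0.488 CPM and was at 5.10, 8.02 and 4.59 CPM in SCADD (log2FC 4.23, SE 0.37, edgeR adjusted p = 0.00012). These genes were well separated between the groups.

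The other called targets moved the opposite way. Slco1a4, an uptake transporter for bile acids and drugs, was at 149, 167 and 126 CPM in WT and 82.0, 48.5 and 43.4 CPM in SCADD (log2FC -1.35, SE 0.23, edgeR adjusted p = 0.00738). Cyp2c54, a P450 of the Cyp2c group, was at 842, 938 and 941 CPM in WT and 305, 553 and 299 CPM in SCADD (log2FC -1.23, SE 0.24, edgeR adjusted p = 0.0120). Its call was lost without WT replicate 2 (0.0616) and without SCADD replicate 1 (0.0514). The list thus held called genes in both directions, and the counts depended on the setting. Without SCADD replicate 2, 7 genes were called (4 higher, 3 lower), and without SCADD replicate 3, 11 (8 higher, 3 lower). DESeq2 called 9 (6 higher, 3 lower), and the fit with no filter on low counts 12 (9 higher, 3 lower). At an unadjusted edgeR p under 0.05, 11 of the 33 were higher and 3 were lower.

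The spread within SCADD had a pattern that the Cyp2b9 and Cyp2b13 values also showed. Of the 33 tested targets, 24 were highest in SCADD replicate 2, which was the highest library for 22.9% of all tested genes. Relative to the WT mean, the median of the 33 targets was 0.057 log2 units in SCADD replicate 1, 0.59 in replicate 2 and -0.19 in replicate 3, with medians between -0.0019 and 0.011 for all tested genes in these libraries. Replicate 2 was above all WT livers for 26 of the 33 targets, replicate 1 for 15 and replicate 3 for 11, where the shares of all tested genes were 35.4%, 31.6% and 34.5%.

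The following 4 examples were chosen after their values were seen. Cyp2a5, a coumarin-hydroxylating P450, was at 168, 198 and 343 CPM in WT and 70.0, 548 and 141 CPM in SCADD. The phase II gene Ugt1a9 was at 5.86, 6.78 and 5.71 CPM in WT and 9.83, 36.1 and 12.1 CPM in SCADD, and Gsta2 was at 23.6, 14.5 and 18.7 and at 14.7, 71.2 and 25.4 CPM. Cyp2a4, a female-biased P450, was at 4.96, 16.6 and 3.53 CPM in WT and 1.02, 28.4 and 1.24 CPM in SCADD. In each case SCADD replicate 2 was the highest of the 6 livers. Of the 10 genes, Nr1i3, Por, Cyp2b9 and Cyp2b13 were also highest there, while Cyp3a11, Cyp3a25 and Cyp3a16 were highest in SCADD replicate 3 in CPM. Nr1i2, Cyp2b10 and Cyp3a13 were highest in a WT liver in CPM. Cyp2b10 was at 19.9 CPM in SCADD replicate 2, below the 31.3 and 28.7 CPM of WT replicates 2 and 3. In TPM Cyp3a11 was highest in SCADD replicate 2, at 9746 against 9159 in SCADD replicate 3. Nr1i2 was also highest there in TPM, at 42.27 against 39.05 in WT replicate 2. In SCADD replicate 2 the summed mitochondrial mRNAs, taken as a sign of RNA quality, were at 55959 CPM, below the 65638 to 77559 CPM of the other libraries. The sums of erythroid (396 CPM), Kupffer cell (142), stellate cell (248), cholangiocyte (28.9) and acute-phase genes (18490) were also lowest there. Their part in the pattern was not tested.

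**Figure D3:**
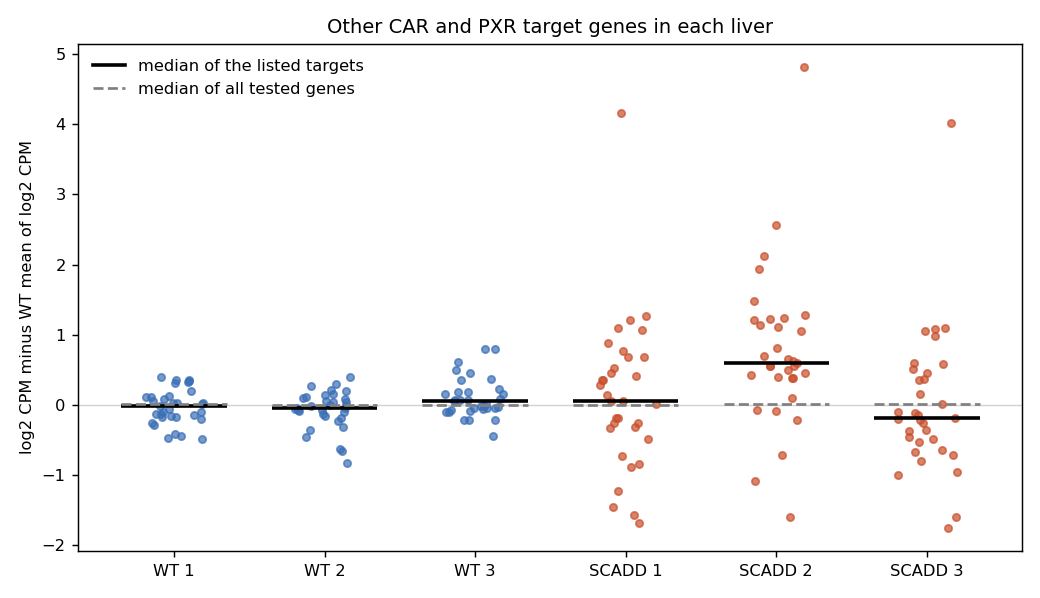
Log2 CPM of the 33 tested targets in each liver, relative to the mean of the WT livers, with the median of the targets as a solid line and that of all tested genes as a dashed line. The targets of SCADD replicate 2 are shifted upward, with a median of 0.59, while the medians of SCADD replicates 1 and 3 are 0.057 and -0.19.

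Neighbouring pathways were listed as well. Of 9 genes listed for microsomal electron transfer, 1 was higher and 0 were lower by each of edgeR, DESeq2 and limma-voom. At an unadjusted edgeR p under 0.05, 2 were higher and 0 were lower. The called gene was Cyb5b, the cytochrome b5 of the outer mitochondrial membrane and thus not itself microsomal. It was at 103, 105 and 101 CPM in WT and 140.2, 206 and 150.3 CPM in SCADD (log2FC 0.68, SE 0.16, edgeR adjusted p = 0.0325). That call was lost when WT replicate 1, 2 or 3 or SCADD replicate 2 was left out (0.0564 to 0.124), and leaving out SCADD replicate 3 gave 3 higher genes in the list. Of 7 tested genes of the aryl hydrocarbon receptor, a separate xenobiotic sensor, 1 was higher by each of the same 3 tools. At an unadjusted edgeR p under 0.05, 3 were higher, and 0 were lower by any of these measures. The called gene, Cyp1a2, the P450 that oxidises caffeine, was at 89.8, 67.5 and 101 CPM in WT and 122, 215 and 160.4 CPM in SCADD (log2FC 0.94, SE 0.22, edgeR adjusted p = 0.0297). Leaving out any WT replicate or SCADD replicate 3 ended the call (0.0528 to 0.138).

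Sex-biased liver genes were listed because Cyp2b9, Cyp2b13 and Cyp3a16 belong to them. Of 15 tested female-biased genes 1 was higher and 2 were lower, with a median log2 fold change of 0.20. Acot3, an acyl-CoA thioesterase, was the higher one (4.17, SE 0.20, edgeR adjusted p = 2.32e-06). Cyp39a1, an oxysterol hydroxylase, was among the lower ones (-2.83, SE 0.46, edgeR adjusted p = 0.0174, or 0.127 without SCADD replicate 2 and 0.0912 with no filter). Female-biased genes therefore did not move together.

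Of 15 male-biased genes 2 were higher and 2 were lower, with a median of -0.13. Susd4 (2.22, edgeR adjusted p = 0.00357) and the fatty acid hydroxylase Cyp4a12a (0.63, edgeR adjusted p = 0.0301, lost without any library but SCADD replicate 3 at 0.0558 to 0.134) were higher. Hsd3b5, a steroid dehydrogenase (-2.57, edgeR adjusted p = 0.000317), and Cyp7b1, an oxysterol hydroxylase (-2.06, edgeR adjusted p = 0.0101), were lower. The values in parentheses are log2 fold changes of SCADD over WT.

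CAR and its targets are expressed most strongly in hepatocytes around the central vein. Of 10 tested pericentral genes other than these, 1 was higher and 1 was lower, with a median log2 fold change of 0.26. The glutamate transporter Slc1a2 was higher (0.83, SE 0.16, edgeR adjusted p = 0.0111, or 0.0586 without WT replicate 3) and the R-spondin receptor Lgr5 was lower (-1.06, SE 0.25, edgeR adjusted p = 0.0319, or 0.058 to 0.103 without any 1 library but SCADD replicate 3). Acute-phase genes were listed because inflammation is known to lower P450 mRNAs, and of 15, 1 was higher and 0 were lower by edgeR (4 at an unadjusted p under 0.05, 3 by DESeq2, 0 by limma-voom). The higher gene was Lcn2, a siderophore-binding protein (1.61, SE 0.29, edgeR adjusted p = 0.0085), while the summed acute-phase level was 24104 to 30361 CPM in WT and 18490 to 21962 CPM in SCADD.

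**Figure D4:**
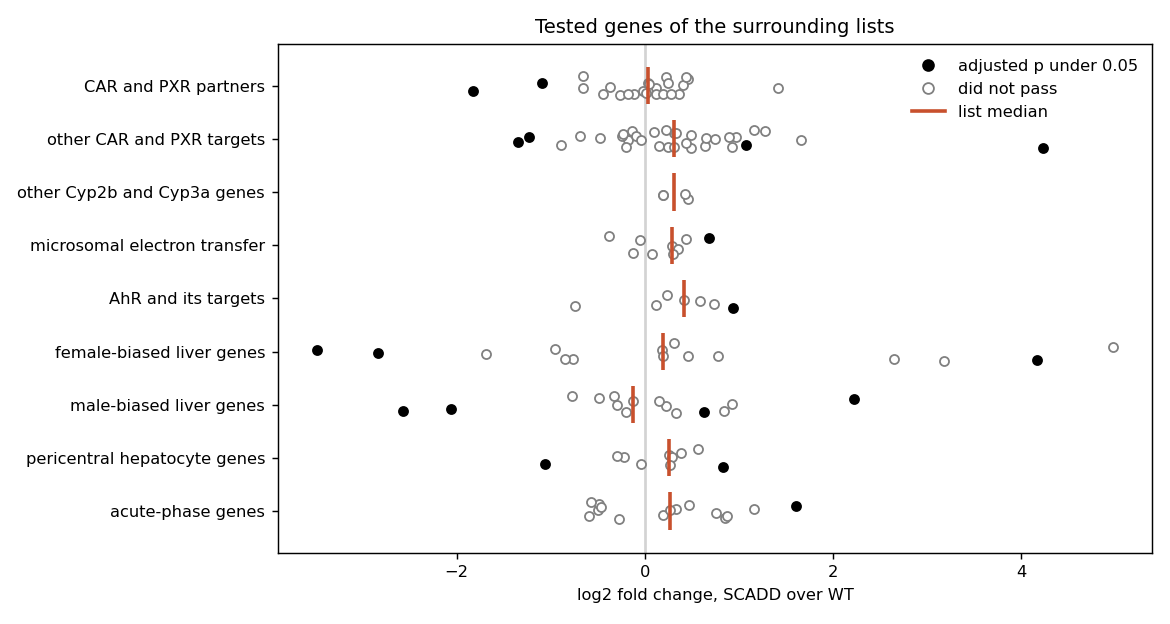
Log2 fold change of SCADD over WT for each tested gene of the 9 surrounding lists, with filled points for genes that passed the threshold and a vertical line at the list median. Each list holds at most 4 called genes, and the medians lie between -0.13 and 0.42.

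Genes with the most similar profiles to the receptors and to Cyp3a13 were found by the root mean square difference of centred log2 CPM over the 6 libraries, among 10505 named genes of at least 1 CPM. This chooses genes by their values, so no test is given. Closest to Nr1i3 were Rap2a, a small GTPase (difference 0.0694), Cobll1, an actin regulator (0.0763), and Gda, guanine deaminase (0.0801). Their levels were 10.8 ± 0.931, 10.3 ± 1.45 and 20.6 ± 3.56 CPM in WT and 20.7 ± 2.07, 21.3 ± 2.86 and 39.0 ± 4.91 CPM in SCADD. Closest to Nr1i2 were Plekhf1 (0.0542), Cdc42ep4 (0.0712) and Ccdc138 (0.0717), which, like Nr1i2, were lowest in WT replicate 1. Closest to Cyp3a13 were Cybc1 (0.0771), Hsp90b1, an endoplasmic reticulum chaperone (0.0821), and Bet1l (0.0880). None of these 9 genes belongs to the Cyp2b or Cyp3a families or to the lists of receptor targets. Such genes are few among the 10505 candidates, so their absence here says little about the receptors.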

How the data were processed

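Poly(A) RNA libraries of 3 WT and 3 SCADD livers were analysed. Per the submitters' processing notes, the authors used STAR 2.7.6a and RSEM 1.3.3 on GRCm38. The annotation release is not given in the sources used here. The authors deposited, per library, STAR counts of uniquely mapped reads per gene (unstranded and by strand) and an RSEM table of expected counts, TPM and FPKM. The deposited counts were not normalised. TPM and FPKM were scaled by the authors' RSEM run for length and library total, and the deposited FPKM values were not used. RSEM expected counts as deposited were rounded to whole numbers for an alternative fit.

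Column 4 of the STAR tables, which held 96.8% to 97.3% of stranded reads, was used. Of 55487 gene IDs 55227 matched GENCODE M21, which gave symbols and coordinates. Rows of unmapped (13.6% to 36.6% of reads), multi-mapped (10.1% to 13.1%), no-feature (outside annotated exons, 1.47% to 2.17%) and ambiguous reads (1.09% to 1.53%) were left out of library sizes. Reads shared by near copies are lost from STAR counts and divided by a model in RSEM. Genes passing filterByExpr (minimum count 10) were tested after TMM scaling in edgeR 4.0.16 (glmQLFit, robust, glmQLFTest) in R 4.3.3, with the group as the only term and Benjamini-Hochberg adjustment over 13498 genes. The SE is approximate, the absolute log2FC over the root of the F statistic. The prior count was 0.125. On simulated counts with 200 changed genes, the test recovered 4 of 65 tested changes of 1.5-fold, 41 of 64 of 2-fold and 60 of 65 of 4-fold. It made 10 false calls among 115. Most 1.5-fold changes were thus missed there, and a gene that was not called can still differ by that much. The biological coefficient of variation was 17.6%. Floors of 3 counts cover counting error only.

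Replicates of a group differed by far more than sampling noise (chi-square per degree of freedom of at least 32.8), and their log CPM correlated at 0.974 to 0.989, beside 0.956 to 0.965 between groups. Alternative settings were scaling by RLE or upper quartile, no filter, a filter of 1 CPM in 3 libraries, DESeq2 1.42.0, limma-voom (limma 3.58.1), no robust estimation, RSEM counts, unstranded counts, a replicate block and leaving out each library. Exact permutation tests compared summed TPM and ratios.

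The genes and lists were chosen with earlier results of these data known. Named were all 10 genes, up to 4 called genes of each list with the smallest p (up to 2 where none was called), and the 3 nearest profiles to Nr1i2, Nr1i3 and each called Cyp gene among named genes of at least 1 CPM. A gene taken by this rule is not reported here. Upstream sequences are from RefSeq (GRCm38.p6), cut where either annotation starts a transcript, and all 10 genes matched.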

Additional observations from a re-analysis of the deposited data

How the results depend on the processing

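Of 157 alternative values for the 10 genes, 146 kept their direction and, where an adjusted p was given, their side of the threshold. Of the rest, 6 lost the call, 1 gained it and 4 changed sign. The sign changed for Nr1i2 without WT replicate 1 (-0.064 to 0.25 over the fits with 1 library left out), for Cyp2b9 (-0.32 to 4.69) and Cyp2b13 (-0.46 to 3.18) without SCADD replicate 2 and for Cyp3a16 without SCADD replicate 3 (-0.22 to 0.45). The summed Cyp2b ratio of SCADD over WT was 0.969 from mean log2 values and 0.453 to 2.12 with 1 library left out. For the 10 genes, 3 were called under each alternative that kept all libraries, and 1 to 3 (1 to 2 higher, 0 to 2 lower) with 1 left out. Genes called overall numbered 1702 with no filter (950 higher, 752 lower), and 395 (without WT replicate 2) to 1590 (without SCADD replicate 3) with 1 library left out, of which 240 to 909 were higher and 155 to 681 lower. Called genes of the surrounding lists, 18 in the reported analysis (9 higher, 9 lower), were 35 with no filter (22 higher), 30 with DESeq2 (16 higher, 14 lower) and 14 (without WT replicate 2) to 28 (without SCADD replicate 3) with 1 left out (6 to 19 higher, 7 to 11 lower). The cause was not tested. DESeq2 gave no adjusted p for Cyp2b9 and Cyp2b13, and Cyp2b13 and Cyp3a16 were too low to test from RSEM counts, as was Cyp2b13 with the filter of 1 CPM.

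Whether the replicate numbers pair the livers could not be settled. Deviations of same-numbered libraries correlated at 0.0606, 0.0372 and 0.107, and those of differently numbered libraries at -0.127 to 0.0612. The highest of the latter was between SCADD replicate 1 and WT replicate 2. Correlations this weak neither show nor exclude a pairing. With the numbers as a replicate block, 1148 genes were called, of them 3 of the 10 genes, and 14 listed genes were higher and 10 lower.

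Low counts limit the precision for Cyp2b9, Cyp2b13 and Cyp3a16, which had 12 to 1448, 2 to 124 and 51 to 90 counts per library.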
